A study of Homo sapiens with 6 samples.

Results

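The CHCHD genes encode small mitochondrial proteins with a coiled-coil-helix-coiled-coil-helix fold, in which paired cysteines, usually spaced as twin CX9C motifs, form disulfide bonds. The 7 described here are CHCHD1, CHCHD2, CHCHD3, CHCHD5, CHCHD6, CHCHD7 and CHCHD10, of the 19974 protein-coding genes that RefSeq places on the autosomes and chromosome X. A peak was assigned to a gene when its summit was no further than 1 kb from an end of the RefSeq span. The family was selected on the presence and fold enrichment of its peaks in these lists, since CHCHD5 had a strong control peak that was missing in the B1 knockout. Presence and strength of the peaks are therefore given as a description, with no test.

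GABPA occupancy was measured by ChIP-seq with 1 GABPA antibody in the established melanoma line A-375, of human origin. The 3 conditions were parental cells without a knockout, a control line with ROSA26 knocked out, and a line in which exon 2 of the GABP B1 subunit was knocked out and into which TERT was then knocked in (a TERT rescue in the sample titles). Per the labels' protocols, knockout cells were isolated by sorting and grown as clones. Each condition had 1 ChIP library with a peak list and 1 input sample, 6 samples in all, and the inputs were not analysed here on their own. The knockout, the knock-in and the clone cannot be told apart, being 1 library, and no difference between the libraries has a replicate check. Peak lists do not measure expression, so the identity of the line was not checked here.

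GABP is a transcription factor in which GABPA, an ETS family protein, contacts DNA and a B subunit carries the activation domain. Its recognition core is GGAA, usually preceded by C, and many nuclear genes for mitochondrial proteins are known to carry such sites at their starts. Twin CX9C proteins are made in the cytosol and trapped in the intermembrane space, where the oxidoreductase CHCHD4 (also called MIA40) oxidises their cysteines. CHCHD3 and CHCHD6 are subunits of MICOS, the complex that shapes cristae. CHCHD2 and CHCHD10 are paralogues in which variants are linked to neurodegenerative disease. CHCHD1 is a protein of the small subunit of the mitochondrial ribosome. CHCHD7 is the human relative of yeast Cox23, a factor for cytochrome c oxidase, and CHCHD5 is known mainly as a substrate of the import pathway.

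Start sequences are shown for the 3 genes with a GABPA peak, and for CHCHD10 as a start with neither a peak nor a core match. They come from RefSeq (GRCh38.p14), each 300 bases long from 250 before to 50 after an annotated start, read 5′ to 3′ along the gene. Capitals mark CGGAA, or TTCCG where the core lies on the other strand. CHCHD5 is chr2:112584359-112584658 (plus strand), CHCHD2 is chr7:56106427-56106726 (minus strand), CHCHD3 is chr7:133082041-133082340 (minus strand) and CHCHD10 is chr22:23767923-23768222 (minus strand).
CHCHD5: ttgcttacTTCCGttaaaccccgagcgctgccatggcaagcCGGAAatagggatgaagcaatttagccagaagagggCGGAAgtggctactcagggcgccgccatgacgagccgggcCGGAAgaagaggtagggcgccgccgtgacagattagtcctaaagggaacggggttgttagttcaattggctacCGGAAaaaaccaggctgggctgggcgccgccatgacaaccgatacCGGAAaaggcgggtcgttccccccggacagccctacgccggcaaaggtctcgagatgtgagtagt
CHCHD2: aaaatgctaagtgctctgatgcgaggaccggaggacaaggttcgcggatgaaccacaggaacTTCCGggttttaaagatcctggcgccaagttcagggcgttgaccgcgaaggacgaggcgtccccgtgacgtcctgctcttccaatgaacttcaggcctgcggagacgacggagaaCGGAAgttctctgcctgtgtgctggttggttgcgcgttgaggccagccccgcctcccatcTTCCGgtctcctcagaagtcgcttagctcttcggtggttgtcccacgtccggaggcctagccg
CHCHD3: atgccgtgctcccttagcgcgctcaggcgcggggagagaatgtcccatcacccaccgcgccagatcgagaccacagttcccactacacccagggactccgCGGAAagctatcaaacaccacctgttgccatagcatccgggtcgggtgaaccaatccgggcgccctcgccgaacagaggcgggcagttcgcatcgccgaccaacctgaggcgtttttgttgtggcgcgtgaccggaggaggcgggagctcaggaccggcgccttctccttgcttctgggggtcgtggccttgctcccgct
CHCHD10: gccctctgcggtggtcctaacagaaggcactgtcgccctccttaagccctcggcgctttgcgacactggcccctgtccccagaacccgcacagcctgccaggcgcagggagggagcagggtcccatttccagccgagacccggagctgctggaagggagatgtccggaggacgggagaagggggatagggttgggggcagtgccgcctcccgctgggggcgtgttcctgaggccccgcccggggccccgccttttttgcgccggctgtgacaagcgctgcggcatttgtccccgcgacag

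The starts differed widely in ETS core matches. The CHCHD5 window shown belongs to the second of its 3 annotated starts and held the most matches of the 3 windows. It held 6 CGGAA matches, of which 5 pointed along the gene and 1, the most upstream, against it. Their starts were 33, 36, 40, 73 and 45 bp apart. The window of the first start, 112584447, held 4 of these matches, and that of the third start held 0. At least 1 match was present in 41.1% of the 22132 promoter windows of protein-coding genes, at least 3 in 5.86%, at least 4 in 2.06% and at least 6 in 0.253%. In the 3476 windows of genes marked in both controls, these shares were 79.3%, 27.0%, 10.7% and 1.32%. CHCHD2 held 3 matches, of which the outer ones had the longer form CCGGAAG, which always contains CGGAA, on the opposite strand. Windows with 2 or more CCGGAAG made up 2.29% of all and 12.5% of those of genes marked in both controls. CHCHD3, CHCHD1 and CHCHD6 held 1 CGGAA match each and no CCGGAAG. The CHCHD10 window held neither, and for CHCHD7 no start sequence was used here. A match is a description of letters and not a measured site.

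GABPA peaks were listed at 3 of the 7 CHCHD genes in both controls and at 1 in the B1 knockout. CHCHD2, CHCHD3 and CHCHD5 were marked in each control list, where 15.5% (parental) and 18.5% (ROSA26) of all protein-coding genes were marked. CHCHD2 alone was marked in the B1 knockout list, against 9.32% of all genes. The controls jointly marked 3063 genes (15.3% of all), of which 60.4% also had a knockout peak and 39.6% had none. CHCHD1, CHCHD6, CHCHD7 and CHCHD10 had no peak within 1 kb of an end in any list. The largest distance of an assigned summit was 125 bp (CHCHD2, parental) and the smallest beyond the limit was 1866 bp (CHCHD1, ROSA26), so no member stood near the 1 kb limit.

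The libraries differed in list length and in background pileup. The lists held 3024 parental, 3857 ROSA26 and 1660 B1 knockout peaks. In the same order, the most common background pileup was 15.4, 14.2 and 9.86 reads, as computed from fold and p-value. The knockout library thus had 64.0% of the parental and 69.3% of the ROSA26 background, a value that grows with depth and fragment length together. The part of this difference in any missing peak was not tested. A gene without a listed peak lies below the limit of the peak caller and is not shown to be unbound.

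**Figure D1:**
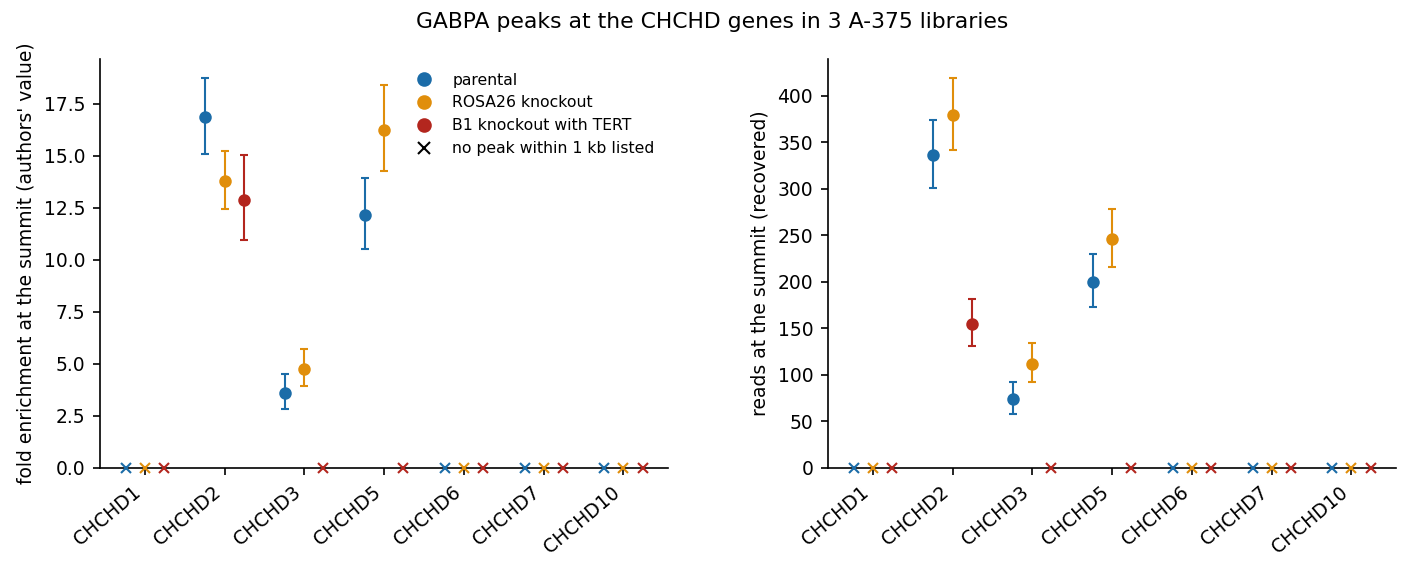
Fold enrichment (left, the authors' value) and reads at the summit (right, recovered from fold and p-value) of each peak within 1 kb of a CHCHD gene, by library. Bars are exact Poisson 95% intervals of the summit reads, which cover counting error only, and crosses mark genes with no listed peak and have no value. CHCHD2 has a peak in all 3 libraries, CHCHD3 and CHCHD5 in the 2 controls.

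CHCHD5 (chromosome 2, 112584447 to 112589040, plus strand) carried the strongest control peaks among the members absent from the knockout list. The parental peak spanned 112584114 to 112584809 with its summit at 112584482, 35 bp inside the gene. The ROSA26 peak spanned 112584010 to 112584869 with its summit at 112584441, 6 bp before the gene. Fold enrichment over the local background, the authors' own value for each peak, was 12.1 for the parental peak and 16.2 for the ROSA26 peak. The −log10 p-values were 125 and 207. At the summits there were 200 parental reads (95% interval 173 to 229.7) over a background of 15.4, and 246 ROSA26 reads (216 to 279) over 14.2. Both peaks thus lay on the gene's start, and the knockout list had no peak there.

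The summits of CHCHD5 each lay close to a core match in the sequence shown, where neighbouring matches start 33 to 73 bp apart. The middle of the match in its single CCGGAAG, at 112584475 to 112584481, was 4 bp from the parental summit. The match at 112584436 to 112584440 was 3 bp from the ROSA26 summit. The summits of the 2 libraries were 41 bp apart, and the parental peak lay wholly within the ROSA26 peak. RefSeq places 3 starts here, at 112584447, 112584609 and 112584854. The parental peak covered the first 2 and the ROSA26 peak all 3. The span of a long noncoding RNA, LOC101927330, also covers both summits, so the peak belongs to the position and not to CHCHD5 alone. Exons were not annotated in the tables used here.

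Few genes with CHCHD5's control strength lacked a knockout peak. Among genes marked in both controls, 306 fell in the same decile of parental fold (11.1 to 13.2), and 297 of them had a knockout peak (97.1%). In its decile of ROSA26 fold (14.9 to 26.4), 305 of 307 had one (99.3%). CHCHD5 had the highest ROSA26 fold of the 1212 genes without a knockout peak and the third highest parental fold. At the common background of the knockout library, a peak with the parental fold would have 132 reads and a −log10 p of 89.9. With the ROSA26 fold it would have 176 reads and a −log10 p of 140.1. In the knockout list the median −log10 p was 34.2 and the lowest fold at that background was 2.75. These values restate the contrast by which the gene was chosen and support nothing beyond it.

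The nearest other peak on chromosome 2 was listed in all 3 libraries. It lay 42 kb from CHCHD5, within 1 kb of an end of both POLR1B, a subunit of RNA polymerase I, and TTL, tubulin tyrosine ligase. Its fold was 8.52 (parental), 15.1 (ROSA26) and 6.96 (knockout), with 197, 235 and 75 reads at the summit. In both controls this neighbouring peak had a lower fold than that of CHCHD5. No further peak lay within 300 kb of CHCHD5 in any list.

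CHCHD2 (chromosome 7, 56101573 to 56106476, minus strand) was marked in all 3 libraries. Its fold was 16.8 (parental), 13.8 (ROSA26) and 12.9 (knockout), at percentiles 97.8, 90.4 and 93.7 of each list. Summits stood at 56106601, 56106569 and 56106565, which is 125, 93 and 89 bp before the start. There were 336 parental reads at the summit (95% interval 301 to 374), 379 ROSA26 reads (342 to 419) and 155 knockout reads (132 to 181). Local backgrounds were 18.9, 26.6 and 11.05 reads, so fewer summit reads in the knockout stood over a lower background. The knockout peak (56106194 to 56106973, 780 bp) lay wholly within the ROSA26 peak and overlapped 96.2% of the parental one.

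The CHCHD2 summits lay among its 3 core matches rather than on one. The middle match, at 56106545 to 56106549, was 54 bp from the parental, 22 bp from the ROSA26 and 18 bp from the knockout summit. No protein-coding gene other than CHCHD2 had an end within 1 kb of these summits, and within 300 kb of the gene no other peak was listed. All 307 genes in the highest decile of parental fold, to which CHCHD2 belongs, had a knockout peak, and 300 of 306 in its decile of ROSA26 fold.

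**Figure D2:**
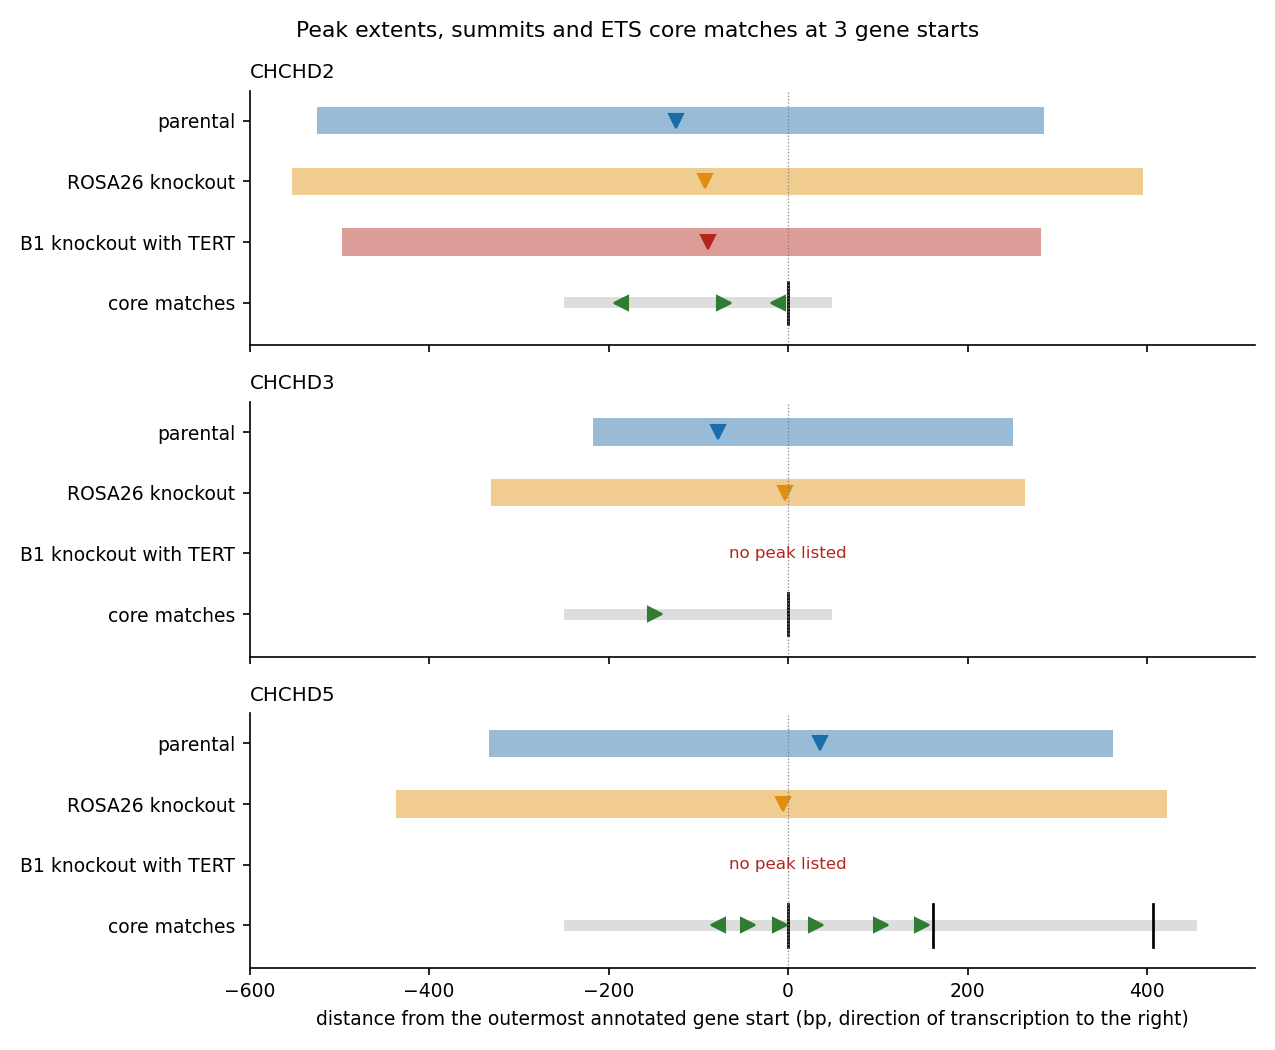
Extent (bars) and summit (triangles) of the GABPA peaks at CHCHD2, CHCHD3 and CHCHD5 by library, against distance in bp from the outermost annotated start, with transcription to the right. The lowest line of each panel shows the RefSeq windows (grey), annotated starts (black) and CGGAA matches (green, pointing along or against the gene); CHCHD5 has 6 matches, CHCHD2 has 3 and CHCHD3 has 1.

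CHCHD3 (chromosome 7, 132784870 to 133082090, minus strand), the MIC19 subunit of MICOS, had weak peaks in both controls. The parental peak (133081839 to 133082307) had a fold of 3.59 and 74 summit reads (95% interval 58.1 to 92.9). The ROSA26 peak (133081826 to 133082421) had a fold of 4.75 and 112 reads (92.2 to 135). They stood at percentiles 14.6 and 38.2 of their lists by fold, so CHCHD3 was among the weaker control peaks where CHCHD5 was among the stronger. The summits, 74 bp apart, lay 78 and 4 bp before the start, and the single core match was 70 bp from the parental and 144 bp from the ROSA26 summit. The pseudogene RNU6-92P also lies within 1 kb of both summits.

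No knockout peak was listed at CHCHD3, and most genes of its control strength had none. Of 306 genes in the same decile of parental fold (3.56 to 4.25), 20 had a knockout peak (6.54%), and of 306 in the same decile of ROSA26 fold, 36 (11.8%). At the knockout background the parental fold would give 38.2 reads and a −log10 p of 10.9, below the 10th percentile of the knockout list (13.6). The ROSA26 fold would give 18.9, above it. Both values exceed the lowest −log10 p listed at that background (5.92), and both control folds exceed the lowest fold there (2.75). The part of depth in the missing CHCHD3 peak was not tested.

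The other MICOS member, CHCHD6, had no peak at its ends. CHCHD6 (chromosome 3, 126704240 to 126960420, plus strand), known as MIC25, had 1 peak in the ROSA26 list alone, 17.2 kb inside the gene (126721280 to 126721671, fold 3.63, 55 reads). No parental or knockout peak was listed in the gene or within 300 kb of it. Its start window held the 1 CGGAA match at 126704120 to 126704124, 118 bp before the start, with no peak there in any list.

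CHCHD1 and CHCHD10 had peaks only beyond the limit. CHCHD1 (chromosome 10, 73782048 to 73783652, plus strand) had its nearest peak 1907 bp past its end in the parental, 1866 bp in the ROSA26 and 1882 bp in the knockout list. These summits lay 47, 88 and 72 bp from the nearer end of the next gene, ZSWIM8, with folds of 9.37, 13.7 and 7.32. CHCHD10 (chromosome 22, 23765834 to 23767972, minus strand) had its nearest ROSA26 peak 14.6 kb away, at ZNF70 (fold 4.21), and no parental or knockout peak within 300 kb. The paralogues CHCHD2 and CHCHD10 thus stood at opposite ends, with a peak in every library at the one and in none at the other.

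CHCHD7 (chromosome 8, 56211789 to 56218809) had no peak in reach although its end lies 516 bp from that of PLAG1, a zinc finger gene. The nearest peak in each list was 137 kb away, at RPS20, a cytosolic ribosomal protein gene, with folds of 17.0, 17.2 and 17.7 in the parental, ROSA26 and knockout lists. The absence at CHCHD7 was shared by all 3 libraries, as at CHCHD1 and CHCHD10.

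**Figure D3:**
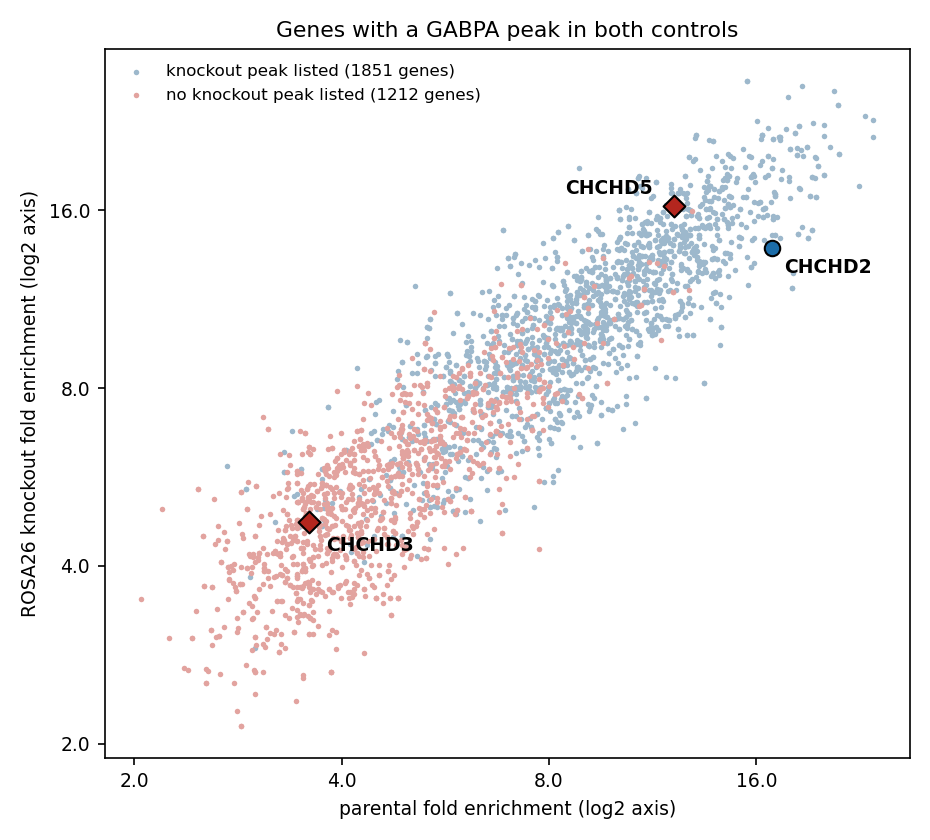
Parental against ROSA26 fold enrichment (log2 axes) of the strongest peak at each of the 3063 genes marked in both controls, coloured by whether a B1 knockout peak was listed (1851 genes) or not (1212 genes). CHCHD5 (fold 12.1 and 16.2) lies among genes with a knockout peak but has none, CHCHD3 (3.59 and 4.75) lies among genes without one, and CHCHD2 (16.8 and 13.8) has one.

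The genes most like each marked member were found by the distance between log2 folds over the lists with a peak, among genes with the same presence. For CHCHD5 these were CACNG8, a calcium channel subunit gene (folds 12.9 and 16.0, distance 0.09), and ASXL1, a chromatin regulator (11.5 and 13.0, distance 0.33), among 1211 candidates over 2 lists. For CHCHD3 they were LRRC46 and MRPL10, which share 1 peak (3.59 and 4.71, distance 0.01). For CHCHD2 they were JMJD4 (15.8, 14.2 and 12.3, distance 0.12) and ZNF205 (15.5, 13.3 and 12.8, distance 0.13), among 1850 candidates over 3 lists.

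Of 15 other twin CX9C genes, 8 had a peak in both controls and 6 of these also had one in the knockout list, beside 15.3% and 60.4% over all genes. Their median control folds were 7.74 and 10.1, against 7.08 and 8.26 over all genes marked in both controls. COA6, an assembly factor of cytochrome c oxidase, had folds of 13.3, 16.2 and 12.4 in the parental, ROSA26 and knockout lists. UQCRH, a hinge subunit of complex III, had folds of 11.6, 11.7 and 5.86 at a peak shared with LRRC41. COA4, another assembly factor, had 11.1, 7.68 and 5.35 at a peak shared with PAAF1. COX17, the copper chaperone of cytochrome c oxidase, had 4.997 and 6.24 and no knockout peak, and CMC1 had 3.58 and 3.68 and none.

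In the import list, the marked genes were small TIM chaperones, which are themselves imported through CHCHD4. CHCHD4, its partner oxidase GFER and AIFM1 had no peak within 1 kb of an end in any library. Of the 9 genes of this list, 5 had a peak in both controls and 3 of these in the knockout, again beside 15.3% and 60.4% over all genes. TIMM10B (13.0, 13.8 and 8.05, shared with ARFIP2), TIMM8B (12.7, 16.1 and 9.97, shared with SDHD) and TIMM13 (5.68, 9.13 and 4.40, shared with LMNB2) had a knockout peak. TIMM10 (5.10 and 8.09) and TIMM8A (3.81 and 4.28, shared with BTK) had none. TIMM9 had a peak in the ROSA26 list alone (fold 3.81).

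The MICOS partners of CHCHD3 and CHCHD6 were marked at 6 of 9 genes in both controls, 3 of them also in the knockout (15.3% and 60.4% over all genes). IMMT, the core subunit also called mitofilin, had folds of 7.94, 11.3 and 5.14. SAMM50, of the outer membrane bridge, had 7.55, 9.40 and 4.30, and MTX1 had 6.35, 7.52 and 3.60 at a peak shared with THBS3. MTX2 (5.92 and 8.48), MICOS13 (4.27 and 4.55, shared with HSD11B1L) and MICOS10 (2.86 and 2.15, shared with MICOS10-NBL1) had no knockout peak. The parental fold of CHCHD3 was below that of every listed partner except MICOS10. Its ROSA26 fold (4.75) was above those of MICOS13 and MICOS10 and below those of the other listed partners.

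Genes around CHCHD2 and CHCHD10 and the OMA1 stress relay, which signals mitochondrial damage to the cytosol, were marked at 4 of 10 in both controls and 3 of these in the knockout, beside the same shares over all genes. YME1L1, an inner membrane protease, had folds of 10.4, 15.01 and 10.4 at a peak shared with MASTL. DELE1, the messenger of the relay, had 8.73, 7.58 and 4.11, and C1QBP had 8.66, 6.60 and 3.34. OPA1, the inner membrane fusion protein that OMA1 cleaves, had 6.41 and 7.98 at a peak shared with ATP13A4, and no knockout peak. OMA1 itself had no peak. Over the 43 genes of the 4 lists together, the controls jointly marked 23, beside 15.3% of all genes. Of these 23, 15 had a knockout peak, beside 60.4% of all such genes.

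**Figure D4:**
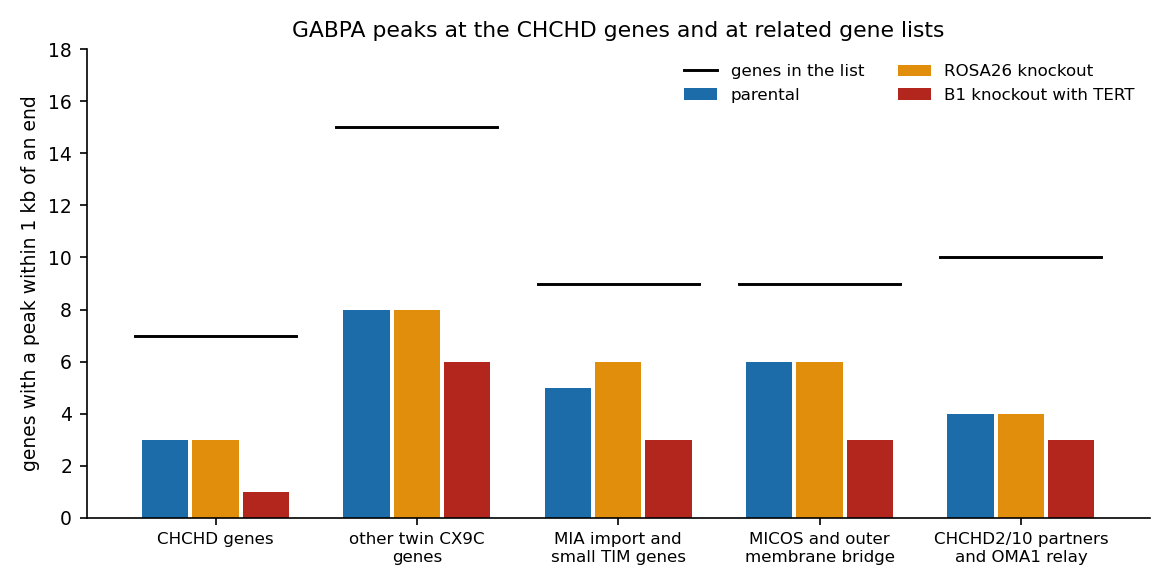
Number of genes with a GABPA peak within 1 kb of an end, by library, for the CHCHD genes and 4 related lists, with the number of genes in each list as a black line. The CHCHD genes have 3, 3 and 1 marked in the parental, ROSA26 and knockout libraries, and the other twin CX9C genes 8, 8 and 6.

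Core matches and knockout peaks went together over genes, with CHCHD5 on the other side. Promoter windows were found for 2624 of the 3063 jointly marked genes. Of these, 42.2% of those with no CGGAA match in any promoter window had a knockout peak (125 of 296), 73.6% of those with 3 (396 of 538) and 90.2% of those with 6 or more (37 of 41). Each gene was counted by its window with the most matches, and genes that share a peak were counted separately. Peak strength moved with the matches, from a median parental fold of 5.37 at 0 matches to 8.66 at 3 and 13.4 at 6 or more, and its part in this was not tested. CHCHD2, with 3, had a knockout peak. CHCHD3, with 1, had none, where 46.6% of the genes with 1 match had one (298 of 639). CHCHD5 was 1 of 4 genes with 6 or more and no knockout peak. The other 3, GAPVD1 (6.76 and 5.40), MTA2 (2.81 and 3.63) and TM9SF2 (6.77 and 4.94), had lower folds in both controls than CHCHD5. The limit of 6 was set after CHCHD5's count was seen.

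**Figure D5:**
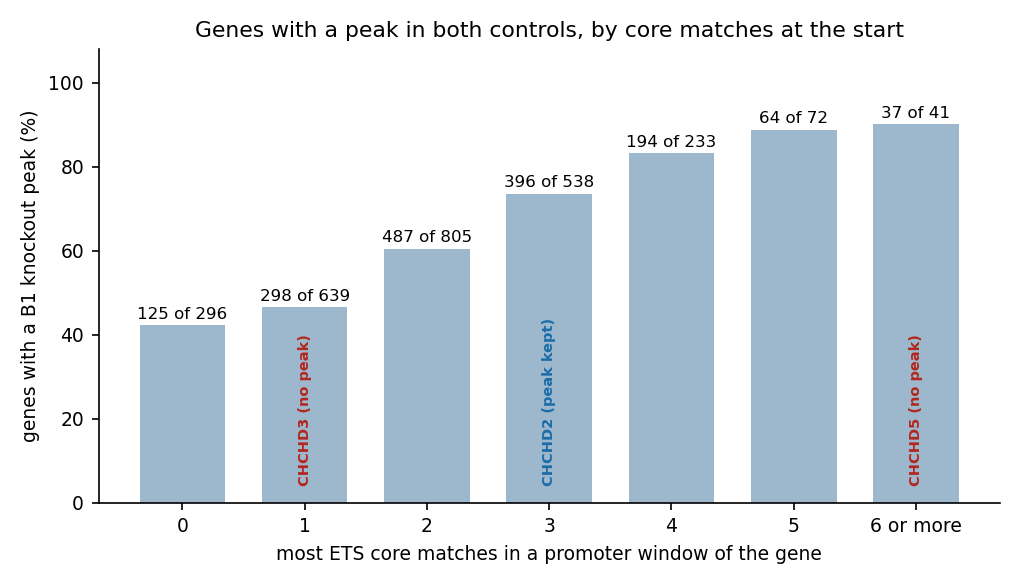
Share of genes marked in both controls that have a B1 knockout peak (percent, bars from 0), by the highest number of CGGAA matches in a promoter window of the gene. Numbers above the bars are genes with a knockout peak of all genes in the bar; it runs from 125 of 296 at 0 matches to 37 of 41 at 6 or more, and CHCHD5 is among the 4 without.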

How the data were processed

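GABPA ChIP-seq peak lists of 3 A-375 libraries were used. Reads were processed with Bowtie2, SAMtools and MACS2 on hg38, per the submitters' processing notes, and versions, thresholds, duplicate handling and use of the input are not given in the sources that were used. Each ChIP sample has its own list. The deposited fold is a ratio of pileup to local background at the summit, and the deposited −log10 p-value, −log10 q-value and score describe the same summit.

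Reads at the summit and the background were computed by inverting the MACS2 formulas for fold and −log10 p (python 3.11.15, scipy 1.17.1). All peaks gave whole reads within 0.1. The scale of each list and the solution of each peak were chosen for nearness to whole reads, so this is no independent check. The solver was checked on simulated lists with the scale known, so the estimate of the scale was not checked. Intervals are exact Poisson 95% intervals and cover counting error only. Genes and starts came from RefSeq GRCh38.p14 tables, whose coordinates are those of hg38, written 1-based. Of the 7 genes all were found in the gene table and 6 in the promoter table. Motifs were counted on both strands of 300-base windows, with overlapping matches counted separately. Members and lists were chosen with earlier results of these data known. Named genes are all members, genes sharing a peak, up to 3 kept and 3 lost genes of each list by parental fold, and the 2 genes most like each marked member. Outside this rule, neighbouring genes and the list genes CHCHD4, GFER, AIFM1, TIMM9 and OMA1 are also named. Other list genes without a peak are not all named. GAPVD1, MTA2 and TM9SF2 were named for their core matches and missing knockout peak. Alternatives are in the closing section. The input samples were not analysed here.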

Additional observations from a re-analysis of the deposited data

How the results depend on the processing

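No paired analysis was possible because each condition has 1 ChIP library and no test was made. The counts of CHCHD genes marked in each library were 3, 3 and 1, with 1 of the 3 control-marked genes also in the knockout. Only a reach of 2 kb moved a count by over 1.5 times: it added CHCHD1 through the peak at ZSWIM8 in all 3 libraries, so that 2 genes had a knockout peak and 2 had peaks in both controls and the knockout. Counting summits anywhere in the gene added CHCHD6 in ROSA26. At equal list length CHCHD3 dropped out of both control lists. A reach of 500 bp, annotated starts only, a −log10 q-value of at least 10, the nearest gene end only and overlap with the parental peak by 1 bp or by 50% of both gave the same counts; CHCHD7 had no window in the promoter table used. The −log10 p expected at the knockout background moved with its starting point. From the ROSA26 peak it was 109.6 for CHCHD2, 18.9 for CHCHD3 and 140.1 for CHCHD5, in place of 148, 10.9 and 89.9. Scaling the parental pileup and local background together, a setting chosen after seeing the data, gave 169, 12.4 and 86.5. For CHCHD3 the ROSA26 value passes the 10th percentile of the knockout list (13.6) and the other values do not; for CHCHD5 all lie above its median (34.2). All these CHCHD3 values lie above the lowest −log10 p listed at the common knockout background (5.92). The part of the lower knockout background in the missing CHCHD3 peak was not tested.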

Other observations

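The CHCHD5 start holds a repeated element besides its ETS cores. The 15-base word GGGCGCCGCCATGAC occurs on chromosome 2 at 112584452 to 112584466 and again at 112584570 to 112584584, with 118 bp between the starts of the copies. An exact repeat of at least 14 bases was found in 9.56% of the 22132 promoter windows of protein-coding genes. Both copies contain GCCGCCAT, known as the core of sites for the factor YY1. On either strand GCCGCCAT was present in 3.91% of windows, and 2 or more copies in 0.0813% (18 windows). The windows of the other members held none, and CHCHD7 had no window to search. The word was noticed in the printed sequence and searched for afterwards, and no data on YY1 were used here.

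The parental peak with the highest fold within 300 kb of CHCHD1 lay within 1 kb of no protein-coding gene end. It was listed in all 3 libraries on chromosome 10, 51.5 kb from CHCHD1 in the parental library (73730022 to 73730867), with folds of 15.6, 15.2 and 15.0 in the parental, ROSA26 and knockout lists.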
